A study of Mus musculus with 12 samples.

Results

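The mitochondrial ribosomal protein genes were examined in hippocampal CA1 tissue of mice with a ligated coronary artery and of mice operated without ligation. The genes were taken by symbol: all protein-coding genes named Mrpl or Mrps with a digit, with a mean of at least 10 counts over the 12 libraries. This gave 77 genes of the 48709 gene IDs in the count files, 48 with a large subunit symbol (Mrpl) and 29 with a small subunit symbol (Mrps). Large and small subunit genes are counted by symbol alone throughout, and a symbol need not give the true place of a protein in the ribosome. The 1 gene of this naming below the minimum was Mrpl53, with a mean of 2.83 counts, and 88.0% of its exon bases lie in exons of Gm42688 on the same strand, which had a mean of 70.9 counts. The genes nearest above the minimum were Mrps36 with 64.25, Mrpl23 with 92.1 and Mrpl22 with 142.3 mean counts, so no gene sat close to the limit. All 77 genes passed the filter on low counts.

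The groups were 6 libraries from mice with myocardial infarction (MI 1 to 6), made by tying off a coronary artery, and 6 from mice with sham surgery (Sham 1 to 6). Polyadenylated RNA of dissected CA1, the hippocampal field between CA2 and the subiculum, was sequenced. Strain, age, sex and the time after surgery are not given in the labels used here, nor do they state that every library is its own animal. The p-values therefore set the group difference against the spread between these libraries, which may be technical in part. The title of the series sets the comparison in the context of heart failure, memory impairment and gene expression. In bulk tissue, fewer cells of a type and less RNA per cell cannot be told apart.

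Mitochondria carry their own ribosome, which translates the few proteins encoded by mitochondrial DNA, all of them subunits of the respiratory chain and ATP synthase. Its RNAs come from mitochondrial DNA, while its proteins are encoded in the nucleus, made in the cytosol and imported. Many have a counterpart in the bacterial ribosome, and others exist only in mitochondria. The large subunit joins amino acids and the small subunit reads the messenger RNA. Neurons depend on oxidative phosphorylation for most of their ATP, and inherited defects of single mitochondrial ribosomal proteins can affect the brain and heart.

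The genes lie on 17 chromosomes, with 11 on chromosome 11 and 8 on chromosome 17 (GRCm38, GENCODE M21). Of 77 genes, 23 (29.9%) started back to back with a protein-coding neighbour on the other strand, with starts at most 1000 bases apart or overlapping by at most 200, against 10.8% of the 14460 protein-coding genes tested. Such pairs included Mrps12 with Sars2, the mitochondrial seryl-tRNA synthetase, and Mrpl36 with Ndufs6, a subunit of respiratory complex I. RefSeq promoter windows (GRCm38.p6, 250 bases before to 50 after the start) were found for 68 of 77 genes, in 74 windows. Searched on both strands, the ETS core CCGGAAG stood in 25 of 74 windows (33.8%), against 15.2% of the windows of tested protein-coding genes and 8.86% of all windows. The YY1 core ATGGCGG stood in 16.2%, against 6.98% and 4.05%, and the NRF1 core GCATGCG in 10.8%, against 5.80% and 3.58%. The TATA box letters TATAAA stood in 6.76%, against 7.29% and 13.6%. No motif contains the letters of another, and a match is a description of the sequence and not a binding site. ETS, YY1 and NRF1 factors are known regulators of many nuclear genes for mitochondrial proteins. The ETS core matched 29.8% of large subunit and 40.7% of small subunit windows, and the YY1 core 12.8% and 22.2%. The NRF1 core went the other way, with 14.9% of large and 3.70% of small subunit windows.

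The 120 bases before the start are shown for the 5 windows with a match in that stretch and no annotated exon, because this core was the searched motif found most often. They run 5′ to 3′ on the gene's strand, and capitals mark CCGGAAG or its reverse complement CTTCCGG. Mrpl34 lies at chr8:71464806-71464925 (+), Mrpl48 at chr7:100583131-100583250 (-), Mrpl52 at chr14:54426789-54426908 (+), Mrpl58 at chr11:115403632-115403751 (+) and Mrps22 at chr9:98601680-98601799 (-). The Mrpl48 window belongs to 1 of several starts that RefSeq gives for this gene. It lies inside the annotated gene, which starts at chr7:100608301 (-). The windows of the other Mrpl48 starts held no match of the ETS core before the start.
Mrpl34: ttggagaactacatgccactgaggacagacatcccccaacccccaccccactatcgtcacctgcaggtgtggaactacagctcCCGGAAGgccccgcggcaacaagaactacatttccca
Mrpl48: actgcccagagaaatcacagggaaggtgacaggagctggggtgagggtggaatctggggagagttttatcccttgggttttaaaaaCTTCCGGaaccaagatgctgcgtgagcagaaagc
Mrpl52: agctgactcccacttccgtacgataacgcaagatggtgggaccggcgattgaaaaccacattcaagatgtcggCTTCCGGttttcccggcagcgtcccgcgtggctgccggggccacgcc
Mrpl58: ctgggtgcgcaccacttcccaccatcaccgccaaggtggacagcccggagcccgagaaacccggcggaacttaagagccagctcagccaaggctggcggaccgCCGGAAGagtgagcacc
Mrps22: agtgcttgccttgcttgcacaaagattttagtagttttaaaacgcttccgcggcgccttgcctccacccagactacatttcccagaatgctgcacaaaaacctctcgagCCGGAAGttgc
The matches lay 11 (Mrps22), 17 (Mrpl58), 34 (Mrpl48), 37 (Mrpl34) and 47 (Mrpl52) bases before the start. Mrpl34 and Mrpl52 were among the 12 genes with the smallest p-values between MI and Sham, given below with their levels. Mrpl48, Mrpl58 and Mrps22 were not, with log2 fold changes (MI minus Sham) of 0.047, 0.033 and 0.0015.

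The libraries held 20764133 (Sham 1) to 35643127 (Sham 5) counts, of which the 77 genes took 0.155% to 0.182%. Y-linked genes had more counts than Xist, the RNA that coats the silenced X, in MI 1, 3 and 4 and in Sham 1, 2 and 3. Xist had more in MI 2, 5 and 6 and in Sham 4, 5 and 6. These library sets are not groups of the study, and each holds 3 libraries of each group. The CA1 markers were present, with 6 of 7 matched and a summed level of 1016 to 1349 CPM (counts scaled to library size by TMM) in MI and 653 to 1614 in Sham, lowest in Sham 1. The dentate granule cell markers, of the neighbouring field, summed to 66.8 to 304.5 CPM in MI and 90.2 to 745.0 in Sham, highest in Sham 6.

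No mitochondrial ribosomal protein gene passed the test between MI and Sham, while most had slightly higher mean levels in MI. The log2 fold change, MI minus Sham, was positive for 62 of 77 genes, against 47.6% of all 16829 genes tested, with a median of 0.048 against -0.007 for all genes. Differences were small: they ran from -0.12 in Mrps6 to 0.21 in Mrpl14, 58 genes stayed under 0.1 in size and 3 exceeded 0.2. Their summed level averaged 1747 ± 56.1 CPM over MI and 1693 ± 53.3 over Sham libraries (SD, n = 6 each), a ratio of 1.03. By edgeR's quasi-likelihood F test with Benjamini-Hochberg adjustment over all genes, the 77 genes gave 0 calls upward and 0 downward at a threshold of 0.05, as did all genes (0%, 0 of 16829). At an unadjusted p under 0.05, 6 were higher (3.95% of all genes) and 0 lower (3.59% of all genes). DESeq2 called 0 of the 77 genes, with 4 higher at an unadjusted p under 0.05 (3.78% of all genes to which it gave an adjusted p), and over all of those genes it called 7 higher (0.0405%) and 4 lower (0.0231%).

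**Figure D1:**
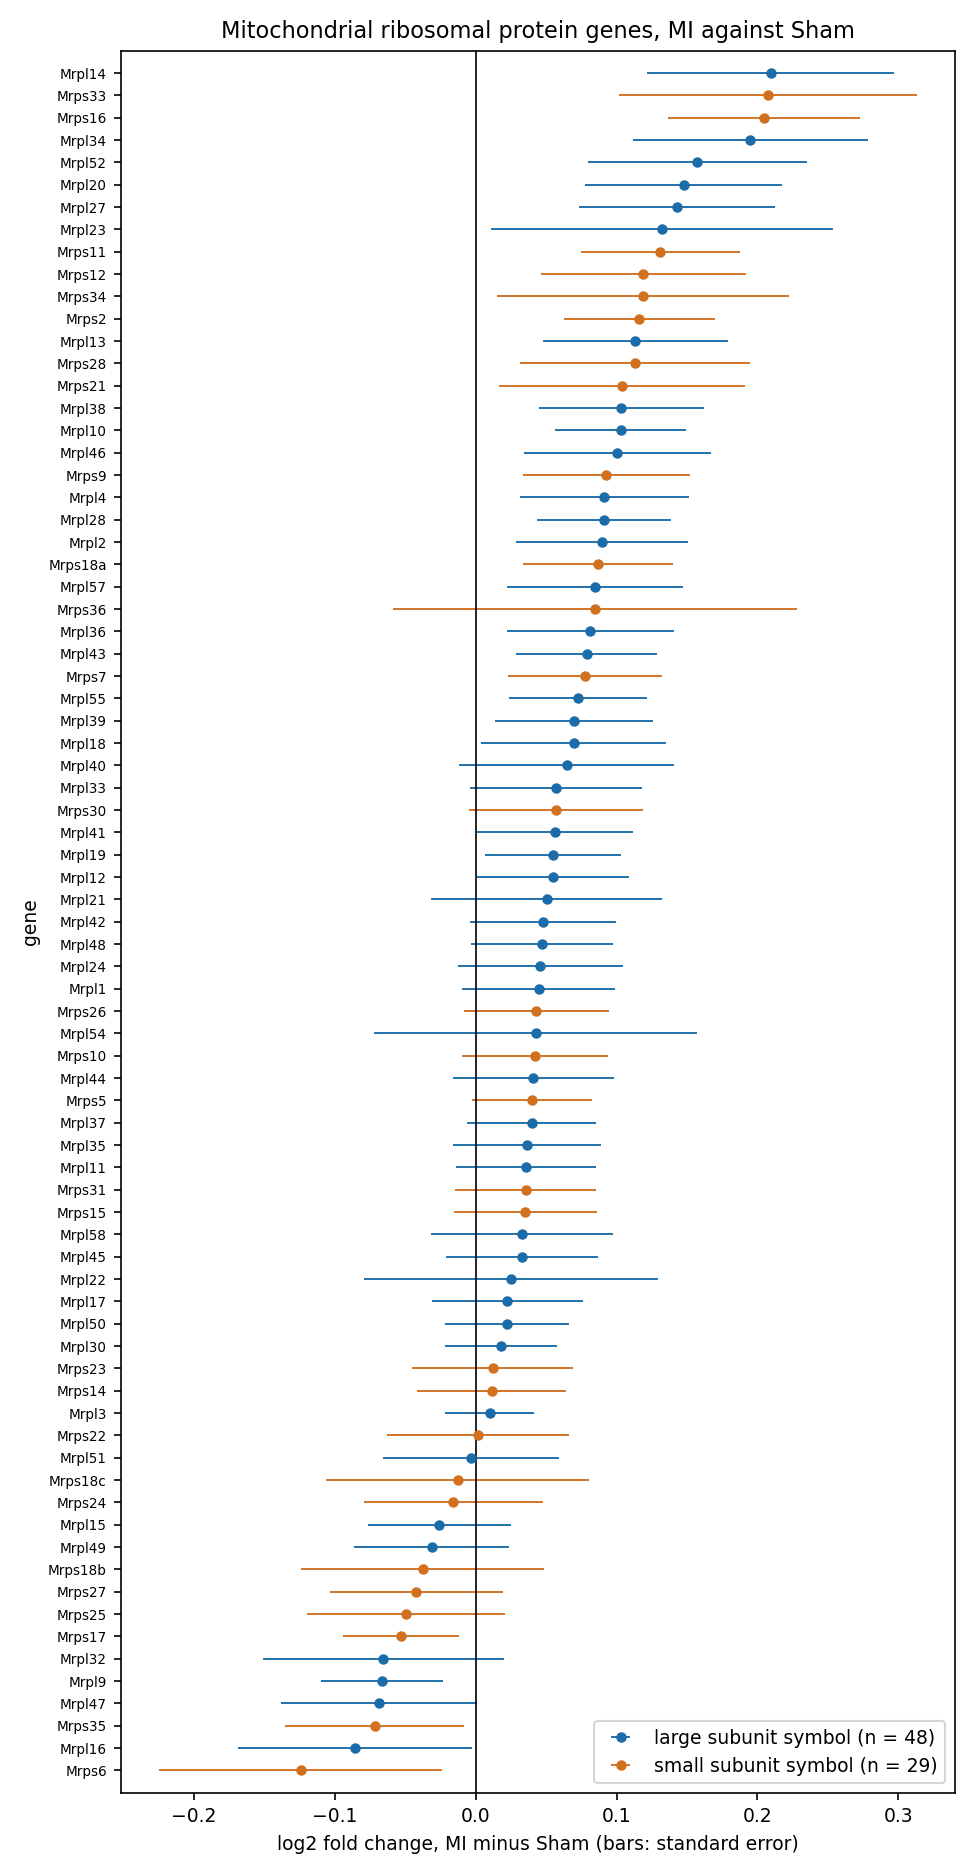
Log2 fold change (x axis, MI minus Sham, with standard errors) of each of the 77 genes (y axis), with large subunit symbols in blue and small subunit symbols in orange. From Mrps6 at -0.12 to Mrpl14 at 0.21, 62 points lie right of 0, and many of the bars reach 0.

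Genes with either subunit symbol had this pattern. Of 48 large subunit genes, 41 were positive with a median of 0.053 and a summed level of 1142 ± 37.5 CPM in MI against 1103 ± 36.9 in Sham (SD, n = 6 each). Of 29 small subunit genes, 21 were positive with a median of 0.042, and their sum was 605.5 ± 19.999 against 589.9 ± 16.5 CPM. Genes with a counterpart in the bacterial ribosome, 47 in all, had 37 positive and a median of 0.055. The 29 classed as specific to the mitochondrial ribosome had 24 and 0.043, and Mrps36 was assigned to neither class. The 6 genes with an unadjusted p under 0.05 all had a bacterial counterpart.

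Mrps16 on chromosome 14 (20389304 to 20393634), a small subunit protein with a bacterial counterpart, had the smallest p-value. Its level was 11.8 CPM at the lowest, 12.8 at the median and 14.5 at the highest in MI, and 9.49, 11.3 and 11.9 in Sham. The groups overlapped through MI 2 alone: the other 5 MI libraries lay above the highest Sham library. The log2 fold change was 0.20 (SE 0.07, edgeR adjusted p = 0.597, unadjusted 0.00993), and Sham 3 was the lowest library by a wide gap.

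Mrps11 on chromosome 7 (78783119 to 78792989), also of the small subunit, had 14.2, 15.8 and 16.7 CPM (lowest, median, highest) in MI and 13.3, 14.1 and 15.8 in Sham. MI 1, 3 and 4 were above every Sham library, and MI 2, 5 and 6 lay below Sham 3, the highest Sham library. The log2 fold change was 0.13 (SE 0.06, edgeR adjusted p = 0.635). Mrps11 and its neighbour Mrpl46 share 173 exon bases, on opposite strands, and reads of a kit that does not mark strand cannot be told apart there.

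Mrps2 on chromosome 2 (28468066 to 28471178) had 27.4, 29.3 and 32.2 CPM in MI and 24.9, 27.6 and 29.3 in Sham, in the same order. The same 3 libraries, MI 1, 3 and 4, lay above every Sham library. Its log2 fold change was 0.12 (SE 0.05, edgeR adjusted p = 0.660).

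Mrpl14 on chromosome 17 (45686322 to 45698495), a large subunit protein at the face toward the small subunit, had the largest log2 fold change, 0.21 (SE 0.09, edgeR adjusted p = 0.624). Its level was 8.16, 9.49 and 10.9 CPM (lowest, median, highest) in MI and 7.24, 8.12 and 9.66 in Sham. Only MI 1 and MI 3 exceeded the highest Sham library, Sham 2. Its exons share 11.2% of their length with Tmem63b.

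Mrpl34 on chromosome 8 (71464959 to 71465747) had 9.16, 10.01 and 11.9 CPM in MI and 7.62, 9.21 and 9.76 in Sham, with MI 1 and MI 4 highest and Sham 6 lowest. Its log2 fold change was 0.19 (SE 0.08, edgeR adjusted p = 0.635). Mrpl10 on chromosome 11 (97041560 to 97049213), which anchors the stalk that recruits translation factors, averaged 40.9 ± 1.82 CPM over MI and 38.0 ± 2.03 over Sham libraries (SD, n = 6 each). MI 2, 3 and 4 were above every Sham library, and the log2 fold change was 0.10 (SE 0.05, edgeR adjusted p = 0.647). Mrpl10 shares 14.1% of its exon length with Gm11574.

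**Figure D2:**
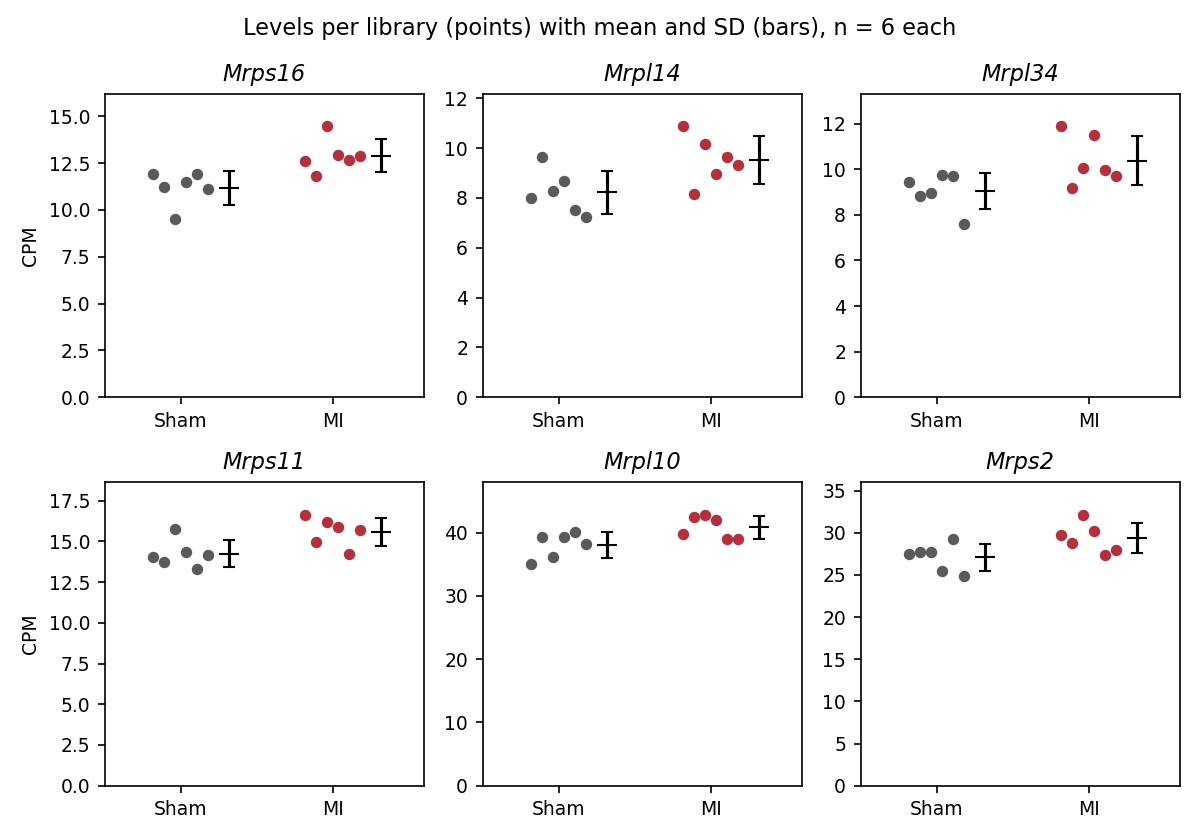
Levels in CPM (y axis, starting at 0) of the 6 genes with the smallest p-values in each Sham and MI library (points, n = 6 each), with mean and SD as bars. In Mrps16, 5 of 6 MI points lie above the highest Sham point, and in every panel the groups overlap.

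The next genes by p-value were Mrpl20, Mrpl27, Mrpl52, Mrps33, Mrpl28 and Mrpl38, with log2 fold changes from 0.09 (Mrpl28) to 0.21 (Mrps33). Mrpl20, a large subunit protein whose bacterial counterpart joins early in assembly, had 29.7, 31.8 and 35.2 CPM in MI and 23.7, 29.8 and 32.4 in Sham, with Sham 6 lowest. Its log2 fold change was 0.15 (SE 0.07, edgeR adjusted p = 0.669). It was the 1 member in the authors' deposited table of genes higher in MI, with a log2 fold change of 0.10 and an adjusted p of 0.0374 there. The log2 values in the authors' deposited table ran from 9.90 to 9.98 in MI and from 9.79 to 9.91 in Sham, so they too overlap. The authors' deposited tables list 526 of the genes tested here as higher (3.13%) and 499 as lower (2.97%), and none of the 77 genes as lower.

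Mrpl52, a mitochondria-specific large subunit protein, had 13.0, 13.9 and 15.4 CPM in MI and 10.9, 12.3 and 14.6 in Sham. Every MI library exceeded the Sham median and MI 3 and MI 4 above every Sham library, with a log2 fold change of 0.16 (SE 0.08). Mrps33 had 6.80, 7.28 and 9.70 CPM in MI and 5.57, 6.70 and 7.46 in Sham, with a log2 fold change of 0.21 (SE 0.11), and only MI 4 exceeded the highest Sham library.

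No gene had MI and Sham levels that did not overlap, against 0.25% of all genes tested with MI higher and 0.16% with MI lower. In 9 genes the lowest MI library exceeded the Sham median, namely Mrpl4, Mrpl10, Mrpl14, Mrpl33, Mrpl52, Mrpl57, Mrps11, Mrps16 and Mrps33, against 10.01% of all genes tested.

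The 15 genes with a negative log2 fold change were led by Mrps6 (chromosome 16, 92058270 to 92112227), a small subunit protein with a bacterial counterpart. It had 11.5, 12.8 and 14.1 CPM in MI and 10.5, 13.98 and 17.3 in Sham, so that the Sham libraries spanned the MI range. The log2 fold change was -0.12 (SE 0.10, edgeR adjusted p = 0.814), and Mrps6 shares 10.4% of its exon length with Slc5a3, a myo-inositol transporter gene. Mrpl16 had -0.09 (SE 0.08), Mrps35 and Mrpl47 -0.07 each, and Mrpl9 -0.07 (SE 0.04). Mrpl9 had 28.9, 30.2 and 32.2 CPM in MI and 30.2, 31.8 and 33.0 in Sham, with Sham 1, 2 and 3 above every MI library.

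The libraries of a group were not alike in these genes. For each gene the log2 CPM was taken relative to its own mean over the 12 libraries, and these deviations were averaged over the 77 genes. MI 1, MI 3 and MI 4 had 0.07, 0.09 and 0.06, with 64, 65 and 58 of 77 genes above their own mean. MI 2, MI 5 and MI 6 had -0.01, -0.02 and -0.02, with 34, 28 and 27 genes above it, much like Sham 1, 3, 4 and 5 (29, 38, 36 and 28 genes). Sham 2 had 0.03 with 47 genes. Sham 6 was the lowest library at -0.13, with 10 of 77 genes above their mean. Over all genes tested, 49.2% to 51.8% lay above their own mean in each library. The summed level followed the same order at the ends, from 1591 CPM in Sham 6 to 1822 in MI 3.

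**Figure D3:**
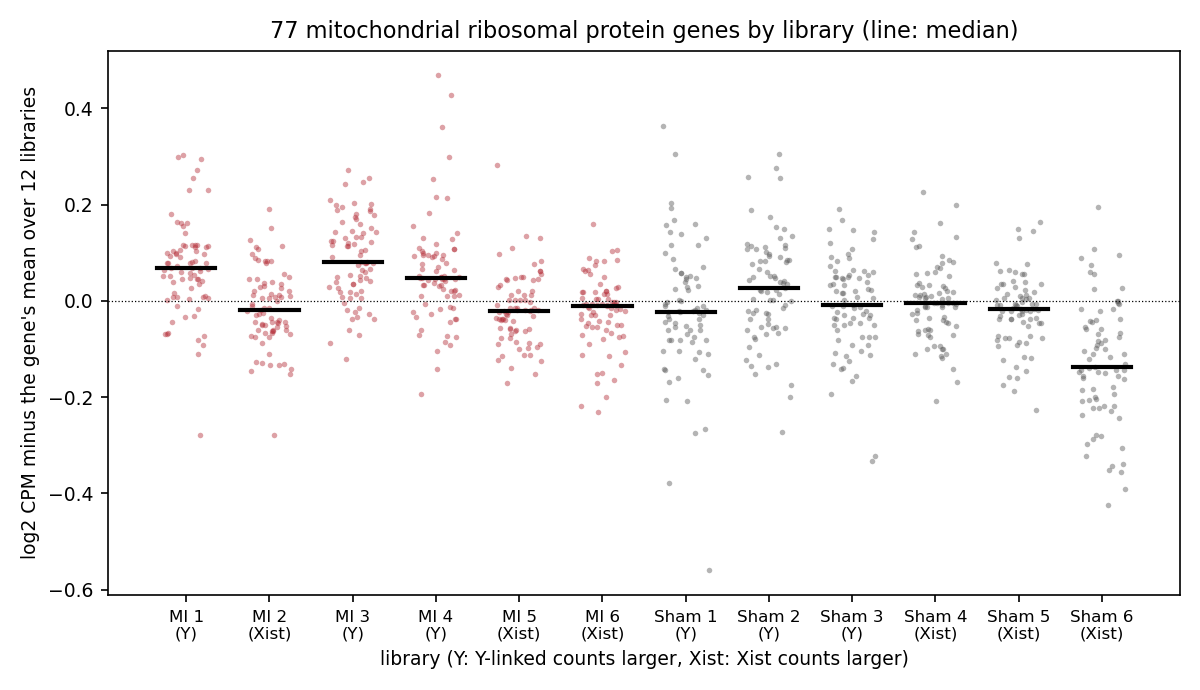
Deviation of log2 CPM from each gene's mean over 12 libraries (y axis) for the 77 genes (points) in each library (x axis, with its library set), with the median as a line. MI 1, MI 3 and MI 4 lie above 0 with 58 to 65 genes, and Sham 6 lies below it with 10 genes above their mean.

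Leaving out Sham 6 brought the positive genes to 55 of 77 (47.9% of all genes) and the median to 0.034. The genes at an unadjusted p under 0.05 were then 1 higher (4.42% of all genes) and 1 lower (4.99%). By summed CPM, Sham 6 also had the highest dentate granule markers and the lowest meningeal markers. By the average log2 deviation, MI 3 and MI 4 were lower in meningeal markers (-0.85 and -0.72, against -0.70 in Sham 6). With Sham 1, the library lowest in CA1 markers, left out as well, 54 were positive (49.3% of all genes) and the median was 0.031. Without MI 1, MI 3 or MI 4, in turn, 2 genes were higher at an unadjusted p under 0.05, against 2.83%, 2.96% and 3.18% of all genes. Without Sham 1 or Sham 3 there were 3, against 3.22% and 3.39%. Without MI 5 there were 9, against 3.44% of all genes. Leaving out MI 2, MI 6, Sham 2, Sham 4 or Sham 5, in turn, gave 4 to 6, against 3.31% to 5.47%. With limma-voom and sample weights, 54 genes were positive (50.4% of all genes) with a median of 0.028.

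The libraries MI 1, MI 3 and MI 4 are the MI libraries with Y-linked counts, so the comparison was also made within each library set, with 3 libraries a group. Among libraries with Y-linked counts, 58 of 77 genes were positive (48.4% of all genes), with a median of 0.079. By edgeR, 9 were higher (7.59% of all genes) and 1, Mrpl9, lower (8.67%) at an unadjusted p under 0.05, and 0 passed the adjusted threshold, against 211 of all genes (1.26%). Among libraries with Xist, 54 of 77 were positive (48.2% of all genes), with a median of 0.037. There, 0 were higher (0.784%) and 0 lower (0.489%) at an unadjusted p under 0.05, and 0 of all genes passed the adjusted threshold (0%). In both sets 39 genes were positive.

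The difference between the sets was tested itself, by the interaction of group and set in edgeR. It passed at an adjusted p under 0.05 for 0 of 77 genes, against 2 of all genes (0.0119%), and for 4 at an unadjusted p, against 8.24% of all genes. These were Mrpl52, Mrpl4, Mrpl24 and Mrps26, and in each the log2 fold change was larger in the libraries with Y-linked counts. Mrpl52 had 0.34 there and -0.02 in those with Xist, a difference of 0.37 (SE 0.13, edgeR adjusted p = 0.504). Mrpl4, a large subunit protein with a bacterial counterpart, had a difference of 0.28 (edgeR adjusted p = 0.516).

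**Figure D4:**
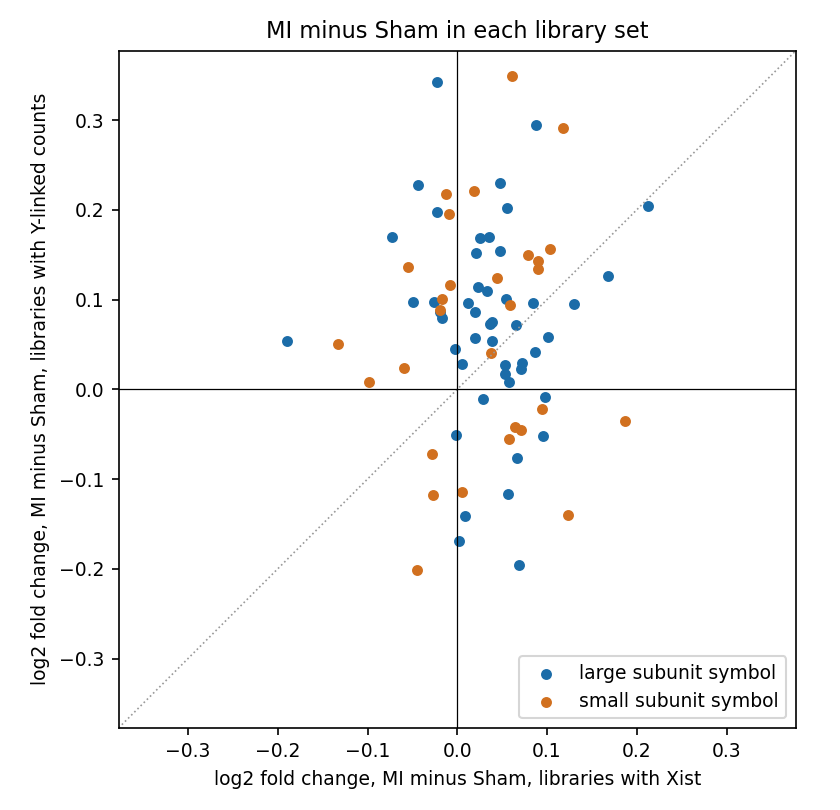
Log2 fold change, MI minus Sham, of each gene in libraries with Xist (x axis) and in libraries with Y-linked counts (y axis), with blue for large and orange for small subunit symbols and a dotted line of equal values. Of 77 genes, 39 lie above 0 on both axes and 48 above the dotted line.

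Markers of some other cell types differed in mean between the groups and between the sets. No marker tested passed the adjusted threshold in edgeR over the 12 libraries. In the set with Y-linked counts all 10 myelin markers did, against 1.26% of all genes. All 10 oligodendrocyte and myelin markers had a higher mean in MI, with summed levels of 5118 to 6464 CPM in MI and 2780 to 5652 in Sham, and a mean log2 difference of 0.53 (0.92 in the set with Y-linked counts, 0.14 in the Xist set). None of the 8 meningeal fibroblast markers did, with 102.3 to 198.2 CPM in MI and 74.8 to 376.8 in Sham, highest in Sham 1, and a mean log2 difference of -0.65 (-1.56 and 0.26). Among other lists, 0 of 6 dentate granule and 5 of 6 CA1 markers, 5 of 5 endothelial, 3 of 4 choroid plexus, 4 of 6 microglial and 3 of 6 astrocyte markers had a higher mean in MI. The dentate count follows CPM means, with a summed level of 745.0 in Sham 6 and 197.1 in Sham 5, the next Sham library. The mean log2 difference of the dentate markers was 0.04 (0.22 in the set with Y-linked counts, -0.15 in the Xist set). No marker of the lists was at 0 in all libraries. With the myelin score as a covariate 67 of 77 genes were positive (48.9% of all genes), with the meningeal score 69 (48.7%), and with the dentate score 63 (48.9%), with 0 passing the adjusted threshold in these fits.

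The other proteins and factors of mitochondrial translation were read from lists, and none passed the adjusted threshold in edgeR. Of 5 ribosomal proteins with other names, 3 had positive log2 fold changes. Dap3, a GTP-binding small subunit protein, averaged 71.7 ± 2.81 CPM over MI and 68.9 ± 2.07 over Sham libraries (SD, n = 6 each), and its log2 fold change was 0.06. Aurkaip1 had 0.08, Gadd45gip1 0.09, Chchd1 -0.04 and Ptcd3 -0.05. Of 26 ribosome assembly factors 18 were positive with a median of 0.02, led by Rpusd3, of the mitochondrial pseudouridine synthases, at 0.22, with Eral1, a chaperone of the small subunit RNA, at 0.08 and Fastkd2 at -0.07.

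Among translation factors 9 of 15 were positive and 6 negative around a median of 0.00, from -0.07 to 0.16. Those with the smallest p-values were the elongation factors Tufm at 0.16 and Gfm1 at 0.08 and the inner membrane insertase Oxa1l at 0.08. Enzymes that charge mitochondrial tRNAs had 11 of 20 positive, a median of 0.01, and 2 higher (3.95% of all genes) and 1 lower (3.59%) at an unadjusted p under 0.05. These were the alanyl-tRNA synthetase Aars2 at 0.12, Qrsl1, which makes glutaminyl-tRNA, at 0.13, and the valyl-tRNA synthetase Vars2 at -0.12. Factors of mitochondrial DNA and RNA had 7 of 13 positive and a median of 0.00.

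Regulators of mitochondrial biogenesis had 5 of 9 positive and a median of 0.03. Among them Esrra, the nuclear receptor ERR alpha that drives genes of oxidative metabolism, had 42.9 to 49.6 CPM in MI and 33.8 to 45.6 in Sham. Its log2 fold change was 0.21 (SE 0.07, edgeR adjusted p = 0.597), and Nrf1 had 0.09. Of the 13 proteins encoded by mitochondrial DNA, the products of these ribosomes, 8 were tested, 1 was positive and the median was -0.03. The other 5, mt-Nd4l, mt-Co2, mt-Co3, mt-Atp6 and mt-Atp8, were listed at 0 in every library. Whether the counting set these zeros is not known, and they are not read as absence of the RNA.

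Other large complexes also had mostly positive log2 fold changes, larger in the respiratory chain subunits than in the 77 genes. The 77 genes had a median of 0.048 and 6 higher at an unadjusted p under 0.05. Nuclear respiratory chain subunits had 75 of 81 positive, a median of 0.10 and 27 higher and 0 lower at an unadjusted p under 0.05. Cytosolic ribosomal proteins had 65 of 81, 0.06 and 9 higher and 1 lower, Rpl11 at -0.29. Of all genes 3.95% were higher and 3.59% lower at that p, and 0 passed the adjusted threshold in both lists. The library averages of the respiratory chain subunits were 0.14, 0.12 and 0.09 in MI 1, MI 3 and MI 4 and -0.19 in Sham 6, the libraries at the ends for the mitochondrial ribosomal proteins too. All lists share the same 12 libraries, so these values stand side by side and are not independent of each other.

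Levels of different genes were compared per length, as RPKM (counts scaled to exon length and library size). The 77 genes ran from 0.737 RPKM in Mrpl23 to 31.5 in Mrpl41, with a median of 9.08, a ratio of 42.7 from highest to lowest. The highest were Mrpl41 with 31.5 ± 1.99, Mrpl10 with 23.1 ± 1.38, Mrps12 with 21.6 ± 2.06, Mrpl28 with 20.6 ± 1.16 and Mrps23 with 19.0 ± 1.19 RPKM (SD, n = 12). Mrpl41 stood apart from the next gene by more than these SDs, and the 4 genes after it differed from their neighbours by about the size of these SDs. Mrps12 is a protein of the decoding centre. The median was 10.04 RPKM for large and 7.26 for small subunit genes.

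The order depended on the length used, at both ends. Mrpl23, Mrpl33, Mrps36, Mrps35 and Mrpl32 were lowest with the merged exons of all transcripts, Mrpl33 at 1.93 RPKM. With the median length of coding transcripts Mrpl33 had 29.5 RPKM and rank 11, while Mrpl23, Mrps36, Mrps35 and Mrpl32 held ranks 68, 76, 73 and 77. By that length the range was 3.49 (Mrpl32) to 64.0 (Mrps17) RPKM, the ratio 18.3. The 5 genes highest by merged exons, Mrpl41, Mrpl10, Mrps12, Mrpl28 and Mrps23, ranked 5, 6, 13, 14 and 19 by it, and Mrps17, first by it, ranked 42 by merged exons. Mrps36 is also known as a subunit of the oxoglutarate dehydrogenase complex. Among these genes of high and low level the log2 fold changes were 0.06 for Mrpl41, 0.12 for Mrps12, 0.01 for Mrps23, 0.13 (SE 0.12) for Mrpl23, 0.06 for Mrpl33, 0.08 (SE 0.14) for Mrps36 and -0.07 for Mrpl32. Mrpl22, among the lowest in counts, had 0.02 (SE 0.10). Within a gene the libraries varied little, with a median coefficient of variation of 6.79%.

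**Figure D5:**
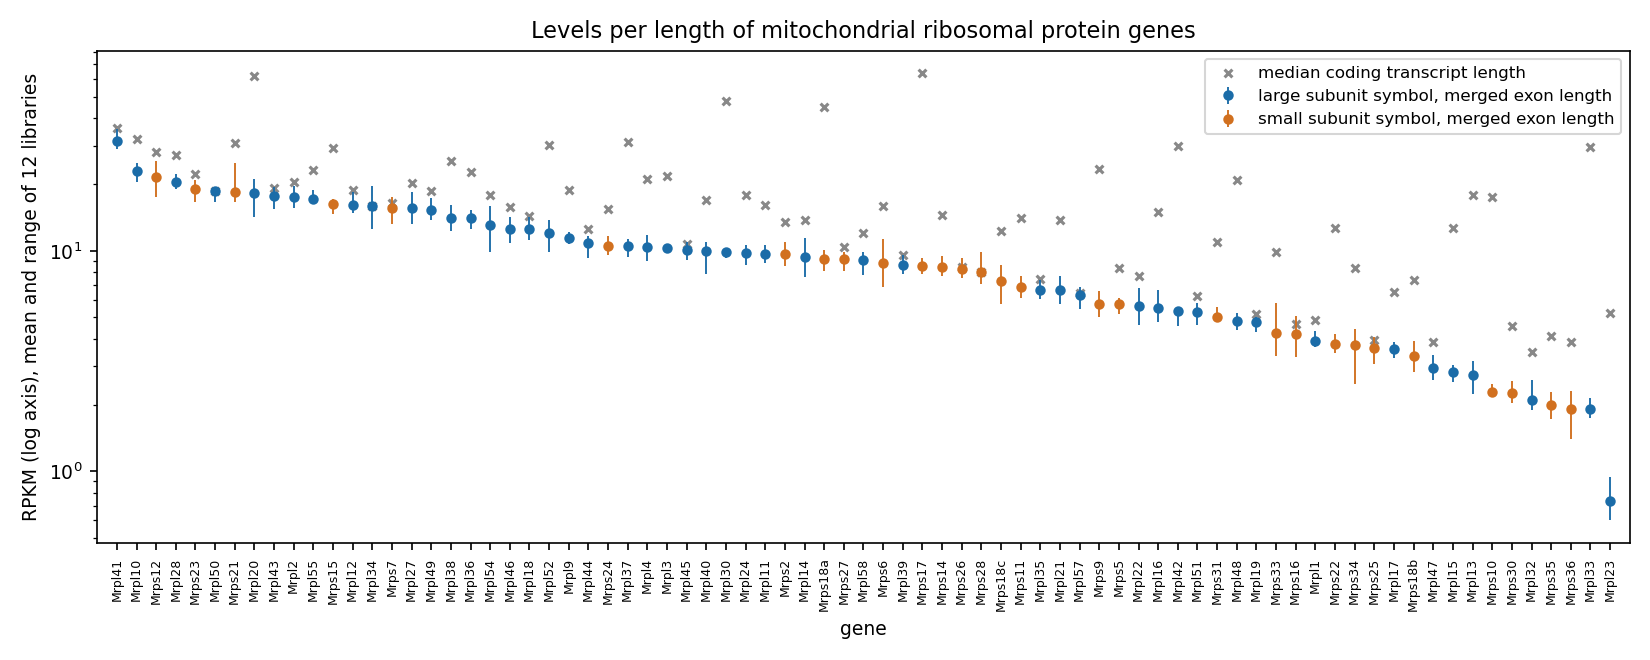
RPKM (y axis, log scale) of the 77 genes (x axis, ordered by mean), as mean and range over 12 libraries with merged exon length (blue large, orange small subunit symbols), and the mean with the median coding transcript length (grey crosses). Levels run from 0.737 in Mrpl23 to 31.5 in Mrpl41, and the cross lies far above the point for Mrpl33.

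Exons of 32 of the 77 genes overlap those of another counted gene, 16 by over 10% of their length, so their counts may hold or lack reads of the neighbour. The overlaps include Mrps34 with Mapk8ip3 (63.4%) and Mrps25 with Nr2c2 (69.8%). Of the 22 back-to-back neighbours tested, 17 had a positive log2 fold change (47.6% of all genes), with a median of 0.075. Their 22 partners among the 77 genes had 16 positive and a median of 0.042. Mrps12 and Sars2 had 0.12 and 0.11, Mrpl36 and Ndufs6 0.08 and 0.20, and Mrpl32 and Psma2, a proteasome subunit, -0.07 and 0.02.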

How the data were processed

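CA1 polyA RNA of 12 libraries, made with a TruSeq kit that does not mark strand, gave single-end reads 50 bases long, per the labels. The submitters' processing notes name the mm10 build, STAR 2.5.2b, Subread 1.5.1 with featureCounts, and FastQC 0.11.5. The authors deposited raw counts per Ensembl gene in whole numbers. The authors also deposited 2 gene tables holding log2 values per library, log2 fold changes and adjusted p-values, whose making the sources do not state.

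Symbols, coordinates and lengths came from GENCODE M21 (48349 of 48709 IDs matched), and promoter windows from RefSeq. Genes were kept by filterByExpr, scaled by TMM and tested in edgeR 4.0.16 (R 4.3.3) by the robust quasi-likelihood F test, two-sided, without covariates, adjusted over 16829 genes with a threshold of 0.05. Log2 CPM used a prior count of 2. The members and gene lists were chosen with earlier results of these data known. The genes named were the 12 smallest p-values, the 5 largest log2 fold changes in each direction, the 5 highest and 5 lowest RPKM, those in the authors' tables and those near the count minimum. Of the lists, all of the other ribosomal proteins and genes of the smallest p-values were named. Others were chosen after their values were seen: Mrpl24, Mrps26, Mrpl4, the genes of counts, overlaps and neighbour pairs, Rpl11 and Mrps17. Alternatives were DESeq2 1.42.0, limma-voom 3.58.1 with sample weights, 1 surrogate variable (sva 3.50.0), other scalings, no low-count filter or one of 50 counts in 6 libraries, the replicate block, the library set as covariate and each library left out. Each set alone, leaving out Sham 1 and Sham 6, and marker scores were added after seeing the data. The procedure was tested on simulated data. Over 30 pairs within groups, counts differed well beyond sampling noise (chi-square over its degrees of freedom 6.22 to 78.2), so none was taken as deposited more than once.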

Additional observations from a re-analysis of the deposited data

Results flagged for a closer look

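Of 104 groups of 6 libraries examined, 7 had an end library set apart from the nearest other one by a share of the group's range above Dixon's critical value, and chance alone gives about 1 in 20. Sham 6 was lowest in the average of the 77 genes, at -0.13 on the log2 scale, with a gap of 0.695 of the Sham range, and in the large subunit average at -0.14, with a gap of 0.698. Sham 3 was lowest in Mrps16 at 9.49 CPM (gap 0.689). MI 1 was highest in Mrpl22 at 6.64 CPM (gap 0.634). MI 4 was highest in Mrps33 at 9.70 CPM (gap 0.787). Sham 1 was highest in Chchd1 at 18.4 CPM (gap 0.716). Sham 3 was highest in Lars2, the mitochondrial leucyl-tRNA synthetase, at 649.6 CPM (gap 0.890).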

How the results depend on the processing

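Under all 27 alternatives, 21 planned and 6 added after seeing the data, 0 of the 77 genes passed the adjusted threshold, with a smallest adjusted p of 0.123 (libraries with Y-linked counts alone, edgeR). Positive genes numbered 54 to 69, and 55 to 65 with 1 library left out. The median ran from 0.028 to 0.079, from 0.027 to 0.077 for large and from 0.023 to 0.088 for small subunit genes. The labels do not state whether the replicate numbers pair the samples. The correlations of same-numbered deviations ran from -0.35 to 0.40, and 3 of 6 MI libraries correlated best with their own number. These values do not settle it. With the replicate block, 63 genes were positive (49.6% of all genes), 0 passed and 4 were higher at an unadjusted p under 0.05 (3.77%). Of 25 named genes 9 changed sign somewhere, and the cause was not tested. Mrpl22 had -0.026 with limma-voom, -0.049 with Xist alone, -0.029 without Sham 1 and Sham 6, -0.059 with the myelin score and -0.032 to 0.066 with 1 library left out. Mrps23 had -0.0039 with limma-voom, -0.046 with Y-linked counts alone and -0.023 to 0.036 with 1 library left out. With Y-linked counts alone Mrpl47 had 0.053 and Mrps36 -0.035, and Mrps36 had -0.069 without Sham 1 and Sham 6. With Xist alone Mrpl16 had 0.0021, Mrpl32 0.069, Mrpl9 0.0083 and Mrpl52 -0.023. With the meningeal score Mrpl16 had 0.026 and Mrpl32 0.020, and with the myelin score Mrpl16 had 0.041, Mrpl32 0.048, Mrpl9 0.0042 and Mrpl33 -0.013. The standard errors of 0.03 to 0.14 limit single genes to differences larger than most of those measured.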

Other observations

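Lars2 was the most uneven of the genes for mitochondrial translation. Its levels in MI 1 to 6 were 43.8, 74.8, 55.2, 55.7, 174.6 and 35.6 CPM, and in Sham 1 to 6 they were 45.3, 52.3, 649.6, 43.9, 40.9 and 38.3 CPM. The log2 fold change of -0.98 (SE 0.82, edgeR adjusted p = 0.823) stands beside a Sham 3 level above every other library, while the remaining Sham libraries lay within the MI range. Of the mitochondrially encoded genes, mt-Nd3 had a log2 fold change of 0.30 at a mean of 16.25 counts, and 5 genes of that genome were listed at 0 in every library.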
